A study of Mus musculus with 12 samples.

Results

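The genes described here carry carbon from mitochondrial citrate into long-chain fatty acids: Slc25a1, Acly, Acss2, Acaca, Acacb, Fasn, Elovl6, Acsl3, Acsl4 and Me1. They were chosen as enzymes and carriers of this route, and all 10 were present among the 54184 genes of the deposited tables. Their transcripts were measured by bulk RNA-seq in nephron progenitor cells (NPC), the Six2-positive cells that give rise to the epithelium of the nephron. The cells came from E13.5 mouse kidneys of CD1 females mated with males that carried or lacked Six2GFP, were labelled wild type, were isolated with magnetic beads and were expanded for a few passages in nephron progenitor expansion medium (NPEM). Each of the 4 groups held 3 libraries, which the study describes as independent NPC preparations.

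The NPEM group was kept in expansion medium and the DMEM group in a DMEM control medium whose supplements the labels do not give. The CHIR group received 3.5 µM CHIR99021, an inhibitor of the kinase GSK3 that activates WNT signalling, and the YN1 group received 20 µM YN1, an inhibitor of PFKFB3 that lowers glycolysis. Both drugs were given for 24 h in a differentiation medium of DMEM with serum replacement and FGF2. CHIR and YN1 therefore differed from NPEM in medium as well as in drug, and these cannot be told apart in the comparisons with NPEM. The comparisons with NPEM share its 3 libraries, and likewise for those with DMEM or CHIR. Library depth is unknown, because the values are TPM (transcript abundance as a share of all transcripts, scaled to a fixed total), which keep no depth, so no counting interval is given. TPM are scaled by transcript length and can be compared between genes.

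Fatty acid synthesis takes place in the cytosol, whereas acetyl-CoA from glycolysis is made inside mitochondria. The acetyl unit leaves mitochondria as citrate through the carrier encoded by Slc25a1, and ATP citrate lyase (Acly) cleaves citrate back to acetyl-CoA. Acetyl-CoA carboxylase (Acaca) makes malonyl-CoA, fatty acid synthase (Fasn) joins these units to palmitate with NADPH as reductant, and the transcription factor SREBP1 (Srebf1) is known for driving these genes in liver and adipose tissue.

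Promoter sequences of 5 genes are shown because the comparisons turn on these genes. Acly, Fasn, Elovl6 and Acsl3 were called (adjusted p under 0.05) between DMEM and NPEM once the replicate number was entered as a block in the fit, and Acss2 was called in the opposite direction to Fasn and Acsl3 in CHIR against DMEM. RefSeq windows (GRCm38.p6) covering 250 bases before to 50 bases after an annotated start site were found for 10 of 10 genes, 11 windows in all because Me1 has 2. The Acly window lies at chr11:100527951-100528250 (minus strand), Fasn at chr11:120824498-120824797 (minus strand), Elovl6 at chr3:129532136-129532435 (plus strand), Acsl3 at chr1:78657575-78657874 (plus strand) and Acss2 at chr2:155517793-155518092 (plus strand). Capitals mark CCAAT (the NF-Y box), GGGCGG (the GC box bound by SP1) and their reverse complements ATTGG and CCGCCC, and each sequence reads 5′ to 3′ on the gene's strand.
Acly: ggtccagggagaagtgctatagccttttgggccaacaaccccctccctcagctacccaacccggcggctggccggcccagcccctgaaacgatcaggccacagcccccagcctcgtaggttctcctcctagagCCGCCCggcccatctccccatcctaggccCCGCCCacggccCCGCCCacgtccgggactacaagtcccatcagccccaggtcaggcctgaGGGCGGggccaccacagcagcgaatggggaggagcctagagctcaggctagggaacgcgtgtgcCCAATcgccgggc
Fasn: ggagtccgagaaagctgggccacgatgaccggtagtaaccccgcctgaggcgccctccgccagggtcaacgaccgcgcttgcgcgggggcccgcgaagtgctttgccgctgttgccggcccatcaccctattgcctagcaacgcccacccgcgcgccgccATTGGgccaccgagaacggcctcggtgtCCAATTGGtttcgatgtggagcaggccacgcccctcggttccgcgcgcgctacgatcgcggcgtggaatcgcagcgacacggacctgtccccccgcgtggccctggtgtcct
Elovl6: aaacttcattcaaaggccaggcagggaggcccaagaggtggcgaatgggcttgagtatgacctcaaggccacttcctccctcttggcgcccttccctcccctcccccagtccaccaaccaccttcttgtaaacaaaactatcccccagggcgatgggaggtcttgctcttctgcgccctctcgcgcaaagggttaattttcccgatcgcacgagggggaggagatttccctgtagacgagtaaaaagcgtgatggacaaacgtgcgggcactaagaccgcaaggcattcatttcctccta
Acsl3: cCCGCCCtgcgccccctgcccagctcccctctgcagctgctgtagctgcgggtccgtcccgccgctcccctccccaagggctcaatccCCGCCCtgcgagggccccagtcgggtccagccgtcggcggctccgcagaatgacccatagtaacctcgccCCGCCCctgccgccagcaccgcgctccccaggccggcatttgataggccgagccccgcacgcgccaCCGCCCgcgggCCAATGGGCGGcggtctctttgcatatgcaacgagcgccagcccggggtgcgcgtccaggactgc
Acss2: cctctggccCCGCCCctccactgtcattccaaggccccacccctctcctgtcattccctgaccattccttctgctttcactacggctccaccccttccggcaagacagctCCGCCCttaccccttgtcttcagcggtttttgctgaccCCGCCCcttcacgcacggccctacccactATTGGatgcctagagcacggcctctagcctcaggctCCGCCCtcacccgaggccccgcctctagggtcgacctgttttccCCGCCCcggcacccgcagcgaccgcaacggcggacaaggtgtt

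Across the 10 genes, 7 had a CCAAT box on either strand in a window and 6 had a GC box, and matches can overlap, as in Fasn and Acsl4. Among all 32851 windows of the same length, 37.4% held CCAAT and 35.7% held GGGCGG. The E-box CACGTG was found only in the Slc25a1 window, against 7.15% of all windows. The sterol element TCACNCCAC was in none of the 10 genes' windows and in 1.24% of all windows, which says only that these letters are not in these stretches. The start sites of the Acaca and Acacb windows lie 65803 and 19197 bases downstream of the annotated start of their genes, in the gene body. That of the Fasn window lies 619 bases downstream, and that of the second Me1 window 8637 bases. The CCAAT box of Me1 was found only in this second window. The genes whose sequences are not shown span chr16:17925211-17928219 (Slc25a1), chr11:84129635-84401651 (Acaca), chr5:114146321-114250761 (Acacb), chrX:142317993-142390802 (Acsl4) and chr9:86581363-86695914 (Me1). In RefSeq, Acsl3 and the protein-coding gene Utp14b begin at the same base, so that reads from their common part cannot be told apart. Other genes overlap members as well, among them the protein-coding Tada2a and Gm11437 with Acaca and the non-coding RNA gene Acss2os with Acss2.

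As a check of the label, the nephron progenitor markers Six2 and Cited1 were present in all 12 libraries, with Six2 between 27.2 and 175 TPM. Cited1 ranged from 22.3 to 90.8 TPM in NPEM and from 1.11 to 6.13 TPM in CHIR. The 9 progenitor markers summed to 462 to 745 TPM in NPEM, 322 to 713 TPM in DMEM, 168 to 483 TPM in CHIR and 253 to 695 TPM in YN1. In CHIR against NPEM 7 of the 9 were below 0, against 58.8% of all genes. With the block 3 were called lower, against 1.66% of all genes in either direction. Pax2 (LogFC 0.99) and Wt1 (0.68) were above 0 and not called. Transcripts of other cell types were also found. Of 7 kidney stroma markers, the collagens Col1a1 and Col3a1 were abundant, while Foxd1, which defines the stromal lineage, was at 0.0444 TPM or below in NPEM and at 4.20 TPM or below elsewhere. The summed level of the stroma markers was 613 to 2036 TPM in NPEM, 1103 to 3582 TPM in DMEM, 774 to 3004 TPM in CHIR and 1046 to 3180 TPM in YN1. In DMEM against NPEM 6 of these 7 were above 0, where 39.7% of all genes were below 0. With the block 2 were called higher, against 6.5% of all genes in either direction. In CHIR against DMEM 5 were below 0, against 65.4% of all genes. With the block 3 were called lower there, against 12.8% of all genes in either direction. The 7 ureteric epithelium markers summed to 10.6 to 134 TPM with Ret at 1.02 TPM or below and Calb1 at 0.247 TPM or below. Among 5 endothelial markers only Emcn was abundant, and Pecam1 was at 0.400 TPM or below. Their summed level was 99.2 to 135 TPM in NPEM, 98.7 to 240 TPM in DMEM, 14.8 to 32.2 TPM in CHIR and 76.8 to 126 TPM in YN1, and Emcn was called lower in CHIR than in DMEM with the replicate block (LogFC -2.68, adjusted p = 0.0157). Kdr was called lower in CHIR than in NPEM with the block (LogFC -2.56, adjusted p = 0.0355). In DMEM and in YN1 against NPEM, 1 of 2 tested endothelial markers was below 0 and called lower with the block, and 1 was above 0. The sum therefore does not stand for each marker. The 5 blood and macrophage markers summed to at most 7.60 TPM, with Ptprc at 0.638 TPM or below, and the 5 adipocyte markers to at most 6.20 TPM. The part of other cells in the results below was not tested, and in bulk RNA fewer cells of a type and less RNA per cell cannot be told apart.

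**Figure D1:**
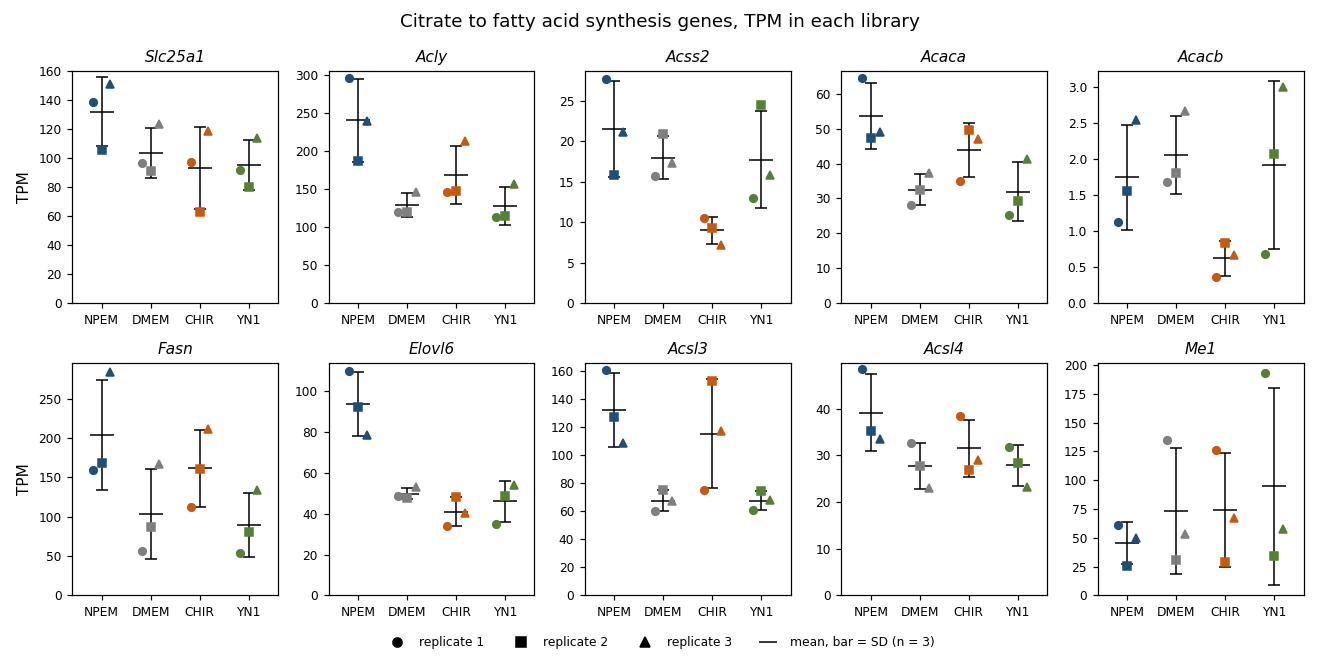
TPM (y axis, from 0) of each gene in every library by group (x axis), with the mean and SD of 3 libraries per group and a marker shape per replicate number. Acly, Elovl6, Acaca and Acsl3 sit higher in the 3 NPEM libraries than in the DMEM and YN1 libraries, Acss2 and Acacb are lowest in CHIR, and Me1 is spread widely by replicate number.

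The summed level of the 10 genes was highest in NPEM, at 964 ± 139 TPM (SD, n = 3), followed by CHIR with 739 ± 97.8 TPM, DMEM with 607 ± 78.9 TPM and YN1 with 601 ± 77.4 TPM. In NPEM the most abundant were Acly with a mean of 241 ± 54.6 TPM and Fasn with 203 ± 69.6 TPM, and the least abundant was Acacb with 1.75 ± 0.729 TPM. A test of any difference among the 4 groups (limma on log2(TPM + 1), with Benjamini-Hochberg adjustment over 15680 genes) called Elovl6 alone of the 10, with an adjusted p of 0.0244, where 3.17% of all genes tested were called. At an unadjusted p under 0.05 there were 6 of the 10 (Acly, Acss2, Acaca, Fasn, Elovl6 and Acsl3), against 19.1% of all genes. With the replicate number as a block, 9 of 10 were called and Me1 was not (adjusted p = 0.144), against 25.2% of all genes. That blocked count fell to 4 without the replicate 1 libraries, to 1 without those of replicate 2 and to 0 without those of replicate 3. Without replicate 3 the calls over all genes fell as well, as given at the end. The other shares are not given here, so these counts are not read as particular to the 10 genes. The Elovl6 call of the test without the block was lost when any single NPEM library, DMEM replicate 2 or CHIR replicate 3 was left out, with adjusted p from 0.0535 to 0.0851.

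The first question is how the cells in expansion medium stood against the average of the other 3 groups. Of the 10 genes, 9 had a higher mean log2 level in NPEM than the average of DMEM, CHIR and YN1, and Me1 had a lower one. Among all genes tested 55.5% were lower in NPEM. Elovl6, which elongates palmitate towards stearate, was higher in NPEM by a LogFC of 1.03 (SE 0.15, 2.04-fold; LogFC is the difference of mean log2(TPM + 1), a scale on which changes of low genes appear too small) with an adjusted p of 0.0102, while 1.93% of 15680 genes were called. This call was lost without NPEM replicate 1 or replicate 2, with adjusted p of 0.0545 and 0.0555. By unadjusted p under 0.05, 8 of 10 were higher in NPEM, compared with 5.89% of all genes. With the replicate block 7 of 10 were called, all higher in NPEM (Slc25a1, Acly, Acaca, Fasn, Elovl6, Acsl3 and Acsl4), compared with 13.2% of all genes. The blocked count was 4 without the replicate 1 libraries, 6 without those of replicate 2 and 1 without those of replicate 3, where Elovl6 had an adjusted p of 0.0517. The share of all genes in these fits is not given here, so these counts are not read as particular to the 10 genes. Acss2 and Acacb did not pass with the block (adjusted p = 0.126 and 0.558).

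The export and cleavage of citrate come first in the route. Acly was at 296, 187 and 239 TPM in NPEM replicates 1, 2 and 3. In DMEM it was at 120, 120 and 147 TPM, in YN1 at 113, 115 and 157 TPM, and in CHIR at 147, 148 and 213 TPM. Every NPEM library was above every DMEM and YN1 library, whereas the CHIR and NPEM libraries overlapped. Slc25a1 was at 139, 106 and 151 TPM in NPEM and at 91.7, 79.9 and 114 TPM in YN1. For Slc25a1 the groups overlapped, since replicate 2 was the lowest and replicate 3 the highest library in all 4 groups, but each YN1 library was below the NPEM library of the same number.

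The carboxylases and the synthase follow. Acaca was at 64.5, 47.3 and 48.9 TPM in NPEM, at 28.1, 32.4 and 37.2 TPM in DMEM, at 25.1, 29.2 and 41.3 TPM in YN1 and at 35.1, 49.5 and 47.0 TPM in CHIR. The NPEM libraries did not overlap those of DMEM or YN1 and overlapped those of CHIR. Fasn was at 159, 168 and 284 TPM in NPEM, at 56.6, 86.9 and 167 TPM in DMEM, at 54.2, 80.2 and 134 TPM in YN1 and at 113, 161 and 211 TPM in CHIR. Within every group Fasn was lowest in replicate 1 and highest in replicate 3, and among the YN1 libraries even the highest was below the lowest NPEM library. Acacb, the carboxylase of the mitochondrial surface whose malonyl-CoA restrains fatty acid import, was low, at 1.13, 1.57 and 2.55 TPM in NPEM and at 0.362, 0.837 and 0.670 TPM in CHIR.

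Elongation and activation act on the finished chain. Elovl6 was at 110, 92.1 and 78.6 TPM in NPEM and between 34.1 and 54.2 TPM in the other 9 libraries. The long-chain acyl-CoA synthetase Acsl3 was at 161, 127 and 109 TPM in NPEM, at 60.2, 74.8 and 67.3 TPM in DMEM, at 60.5, 74.1 and 67.8 TPM in YN1 and at 75.3, 153 and 117 TPM in CHIR. For Acsl3 the CHIR libraries overlapped the NPEM range, and NPEM lay above all DMEM and YN1 libraries. Acsl4, a synthetase that prefers arachidonate, was at 48.5, 35.3 and 33.4 TPM in NPEM and at 31.9, 28.4 and 23.2 TPM in YN1, with no overlap between them.

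A pair of enzymes stands to the side of the citrate route. Acss2, which makes acetyl-CoA from acetate, was at 27.7, 15.8 and 21.2 TPM in NPEM, at 15.7, 20.9 and 17.3 TPM in DMEM, at 12.97, 24.4 and 15.8 TPM in YN1 and at 10.6, 9.29 and 7.23 TPM in CHIR. The 3 CHIR libraries were the lowest of the 12. Me1, the malic enzyme that supplies NADPH, was at 61.4, 25.8 and 49.7 TPM in NPEM, at 135, 31.1 and 53.3 TPM in DMEM, at 126, 28.6 and 67.2 TPM in CHIR and at 193, 33.9 and 57.6 TPM in YN1. Me1 was highest in replicate 1 and lowest in replicate 2 in all 4 groups, and its groups overlapped throughout.

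DMEM against NPEM compared the control media with no drug. No gene of the 10 was called by limma at an adjusted p under 0.05, where 0.446% of 14343 genes were. Lower in DMEM at an unadjusted p under 0.05 were 5 genes (Acly, Acaca, Fasn, Elovl6 and Acsl3) against 4.8% of all genes. With the replicate block, 4 were called, all lower in DMEM, against 6.5% of all genes in either direction. These were Fasn with a LogFC of -1.06 (blocked SE 0.15, 2.08-fold lower, adjusted p = 0.0334), Elovl6 with -0.88 (0.14, 1.85-fold, 0.0369), Acly with -0.88 (0.15, 1.84-fold, 0.0425) and Acsl3 with -0.95 (0.16, 1.93-fold, 0.0427). For 7 of the 10 genes, these 4 among them, all 3 DMEM libraries were below the NPEM library of the same number. For 2 genes all 3 were above it. The blocked fit rests on the same pairs, so this adds no support to its calls. The share of all genes with such pairs is not given here. Acss2 had a LogFC of -0.23 (SE 0.24) and Acacb of 0.17 (SE 0.29), neither passing the test. One fit of all 4 groups with the block called 6 lower in DMEM, adding Acaca and Acsl4, against 12.3% of all genes. The median LogFC of the 10 genes was -0.59, against 0.09 for all genes tested.

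YN1 against NPEM asked how the genes stood under the PFKFB3 inhibitor. No gene of the 10 was called by limma without the block, where 0.23% of 14323 genes were. Lower in YN1 at an unadjusted p under 0.05 were 6 genes (Slc25a1, Acly, Acaca, Fasn, Elovl6 and Acsl3) against 4.73% of all genes. With the block, Fasn was called (LogFC -1.22, blocked SE 0.13, 2.34-fold lower, adjusted p = 0.0491), where 0.754% of all genes were. The other LogFC were -1.02 for Elovl6 (SE 0.21), -0.95 for Acsl3 (SE 0.18), -0.90 for Acly (SE 0.21), -0.75 for Acaca (SE 0.23) and -0.47 for both Slc25a1 (SE 0.19) and Acsl4 (SE 0.21), none past the adjusted test in either fit of the 6 libraries. One fit of all 4 groups with the block called all of these and Fasn, 7 of 10, lower in YN1, against 14.6% of all genes. For 7 genes all 3 YN1 libraries were below the NPEM library of the same number, and for Me1 all 3 were above it. The share of all genes with such pairs is not given here. The median LogFC of the 10 genes was -0.61, against 0.09 for all genes.

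YN1 against DMEM compared the drug with a DMEM-based control. None of the 10 genes was called by limma at an adjusted p under 0.05, with or without the block, and none reached an unadjusted p under 0.05 without it. Of 14500 genes 0% were called in either fit, and at an unadjusted p 0.2% were lower and 0.317% higher. For Acly the difference was a LogFC of -0.02, with a 95% interval of -0.43 to 0.39, and of -0.16 to 0.13 with the block. For Acsl3 it was 0.00 with an interval of -0.12 to 0.13 with the block, and for Fasn -0.17 with an interval of -1.30 to 0.97, or -0.34 to 0.01 with the block. The interval of Me1 was -1.58 to 2.08, or -0.01 to 0.50 with the block. These intervals bound the differences that remain possible and do not show that the genes were equal.

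**Figure D2:**
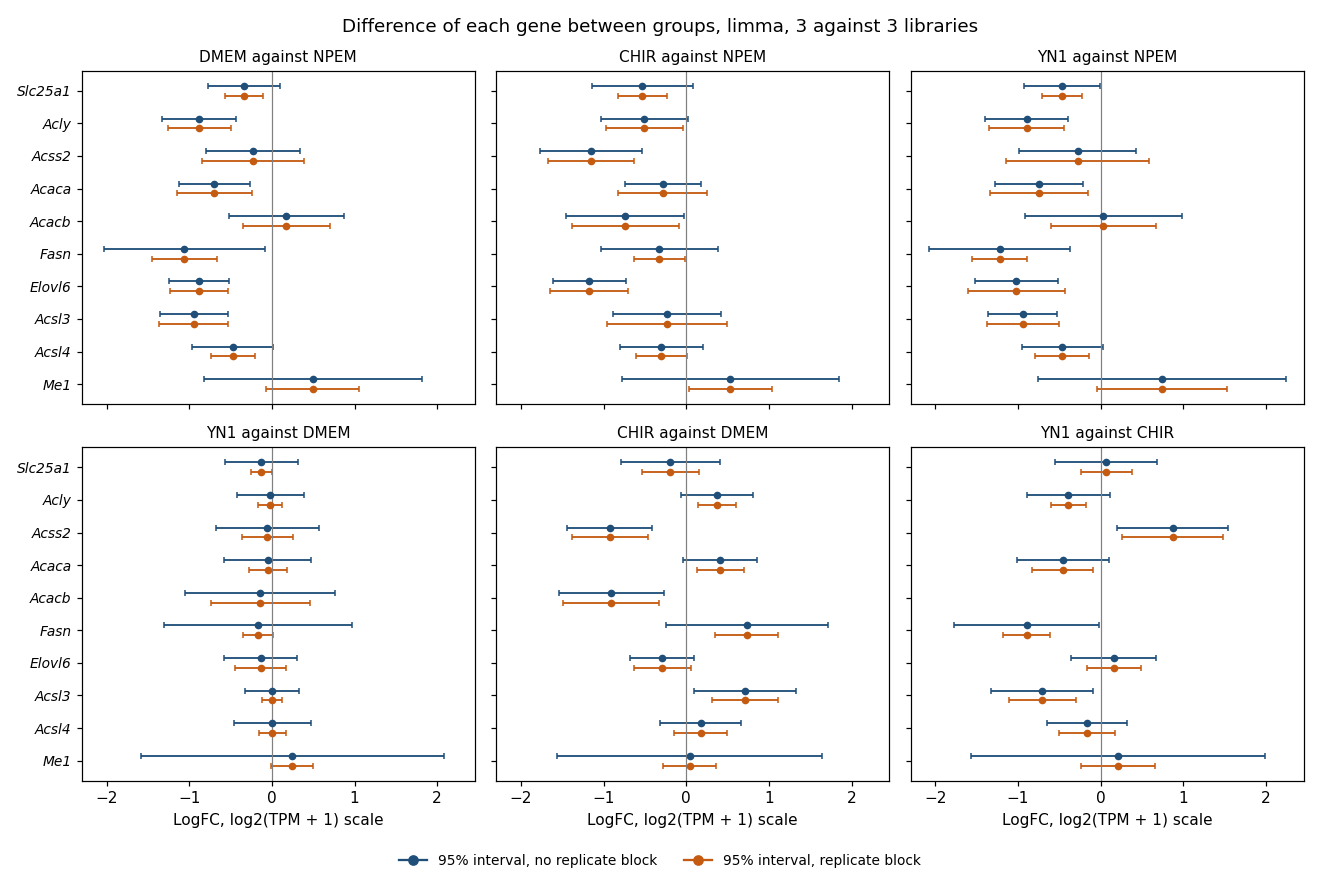
LogFC on the log2(TPM + 1) scale (x axis) of each gene (y axis) in the 6 pairwise comparisons of 3 against 3 libraries, with 95% intervals without and with the replicate block. In DMEM and YN1 against NPEM the points of Acly, Acaca, Fasn, Elovl6 and Acsl3 lie left of 0, the points of YN1 against DMEM lie near 0, and Acacb is missing from YN1 against CHIR because it failed the filter on low values.

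CHIR against NPEM asked how the genes stood under the GSK3 inhibitor, and Elovl6 and Acss2 had the lowest LogFC. In the 6-library fits none of the 10 was called by limma with or without the block, where 0.378% of 14035 genes were called without it and 1.66% with it. Lower in CHIR at an unadjusted p under 0.05 were 3 genes (Acss2, Acacb and Elovl6) against 7.55% of all genes. Elovl6 had a LogFC of -1.17 (SE 0.19, 2.26-fold lower, adjusted p = 0.0637), Acss2 of -1.15 (SE 0.26, 2.22-fold, adjusted p = 0.144) and Acacb of -0.74 (SE 0.30, adjusted p = 0.401). For these 3 the groups did not overlap, with Acacb at 0.837 TPM or below in CHIR. Acacb met the filter of 1 TPM in 3 libraries only through NPEM. Neither its place in the count nor its lack of overlap is therefore support. The share of all genes without overlap is not given here. Without CHIR replicate 2, Elovl6 was called (LogFC -1.30, adjusted p = 0.0429). One fit of all 4 groups with the block called 3 of 10 lower in CHIR (Elovl6, Slc25a1 and Acss2), against 9.23% of all genes. The LogFC were -0.51 for Acly (SE 0.22), -0.29 for Acaca (SE 0.20), -0.33 for Fasn (SE 0.30) and -0.24 for Acsl3 (SE 0.28). The median LogFC was -0.42, against -0.06 for all genes.

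CHIR against DMEM separated the genes into groups of opposite sign. No gene of the 10 was called by limma without the block, where 0.252% of 14313 genes were. At an unadjusted p under 0.05, Acss2 and Acacb were lower in CHIR against 15.1% of all genes, and Acsl3 was higher against 4.16% of all genes. Acacb, at 0.837 TPM or below in CHIR, met the filter of 1 TPM in 3 libraries only through DMEM. Its place in this count is therefore no support. With the block, 3 of 10 were called against 12.8% of all genes: Acss2 lower (LogFC -0.92, blocked SE 0.18, 1.90-fold lower, adjusted p = 0.0411), and Fasn (0.73, 0.15, 1.66-fold higher, 0.0436) and Acsl3 (0.71, 0.15, 1.64-fold higher, 0.0480) higher. Acly and Acaca had LogFC of 0.37 and 0.41 and were higher in all 3 CHIR libraries than in the DMEM library of the same number, without passing the adjusted test (adjusted p = 0.0571 and 0.0714 with the block). One fit of all 4 groups with the block called 4 of 10, adding Acacb lower, against 21.6% of all genes. Acacb entered that fit through libraries other than those of CHIR, so its call is no support. The all-gene median was -0.15 here and 0.00 after quantile normalisation, under which the LogFC were -0.68 for Acss2, 0.76 for Fasn and 0.77 for Acsl3, so that none of the 3 changed sign.

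YN1 against CHIR set the drugs side by side. No gene of the 10 was called by limma without the block, where 0.00701% of 14269 genes were. At an unadjusted p under 0.05, Fasn and Acsl3 were lower in YN1 (LogFC -0.90 and -0.71) against 3.21% of all genes, and Acss2 was higher (0.87) against 12.3%. With the block, Fasn was called (blocked SE 0.11, 1.86-fold lower in YN1, adjusted p = 0.0416), where 1.56% of all genes were. Fasn was lower in YN1 in all 3 pairs, on which the blocked fit already rests. The count at an unadjusted p was 0 without CHIR replicate 3 and 1 without CHIR replicate 2 or YN1 replicate 1. The share of all genes in these fits is not given here. One fit of all 4 groups with the block called Fasn and Acsl3 lower and Acacb higher in YN1, against 18.4% of all genes. Acacb failed the filter on low values in the libraries of YN1 and CHIR. It entered that fit only with the NPEM and DMEM libraries, so its call is no support. The all-gene median was 0.16 here, and after quantile normalisation the LogFC of these genes were -0.92 for Fasn, -0.77 for Acsl3 and 0.63 for Acss2.

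**Figure D3:**
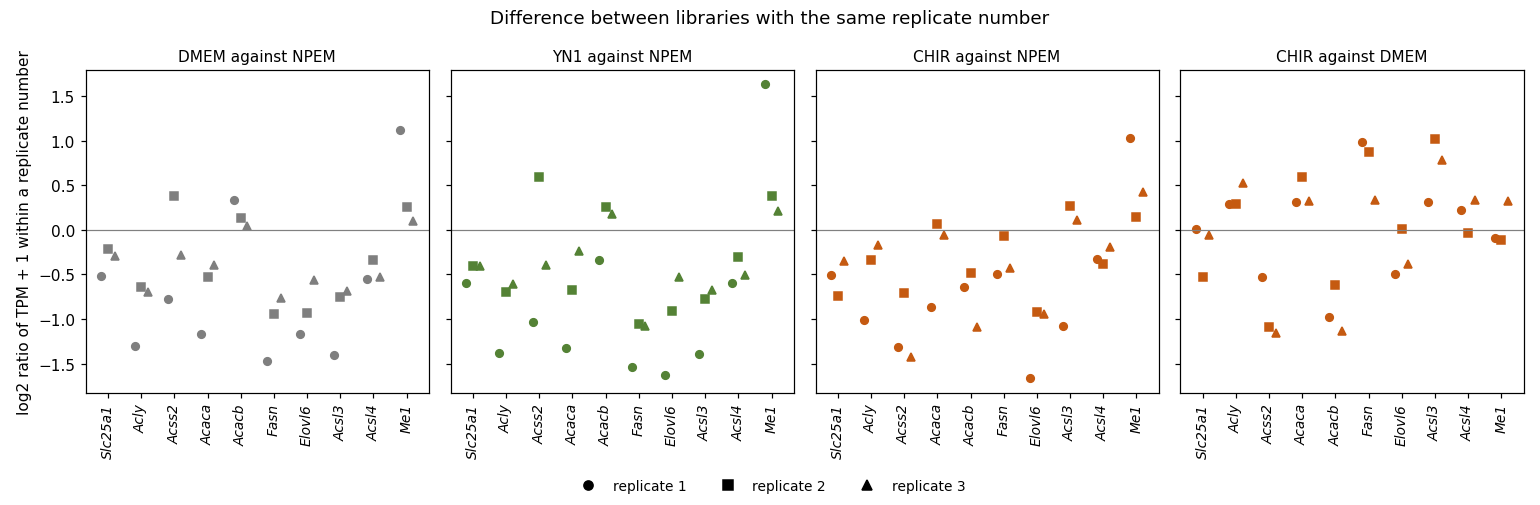
Difference between libraries of the same replicate number, as the log2 ratio of TPM + 1 (y axis), for each gene (x axis) in 4 comparisons, with a marker shape per replicate number. In DMEM and YN1 against NPEM the replicate 1 pair has the most negative value for Acly, Acaca, Fasn, Elovl6 and Acsl3 (for example -1.30, -0.64 and -0.70 for Acly in DMEM), and Me1 is above 0 in all 3 pairs.

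Libraries of one group also differed by replicate number. Within DMEM, for example, Fasn was at 56.6, 86.9 and 167 TPM. Between the lowest and the highest of the 12 libraries, Fasn varied 5.23-fold, Me1 7.46-fold and Acacb 8.31-fold. The range was 2.12-fold for Acsl4 and 2.40-fold for Slc25a1. These ranges mix group and replicate number. In the replicate 1 pair of YN1 and NPEM, the log2 ratio was -1.62 for Elovl6, whereas it was -0.90 and -0.53 in the pairs of replicates 2 and 3. For Acaca the ratios were -1.32, -0.68 and -0.24. For Fasn they were -1.53, -1.06 and -1.08, and thus closer to each other. The stroma markers summed to 2036 TPM in NPEM replicate 1 against 613 and 836 TPM in replicates 2 and 3, and whether this bears on the replicate differences was not tested.

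The isoenzymes of acetyl-CoA carboxylase were also compared as a share. Acaca made up 96.7% ± 1.62 (SD, n = 3) of the summed TPM of Acaca and Acacb in NPEM, 94.1% ± 0.738 in DMEM, 98.6% ± 0.323 in CHIR and 94.6% ± 2.36 in YN1. The DMEM and CHIR shares did not overlap those of NPEM, on opposite sides, with a two-sided exact permutation p of 0.1 in each case, the smallest that 3 against 3 allows. The p for YN1 was 0.3. A p under 0.05 could not be reached in this design.

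Genes around the route were counted from lists of 6 kinds, whose values are given as counts and medians. Among the regulators of lipogenic genes, Srebf1 was at 157 ± 23.1 TPM in NPEM, 106 ± 30.0 TPM in DMEM, 87.6 ± 23.6 TPM in CHIR and 100.2 ± 35.4 TPM in YN1 (SD, n = 3). It passed the test in CHIR against NPEM with the block (LogFC -0.86, adjusted p = 0.0395) and in no other comparison of a pair of groups. Insig1, a sterol-regulated protein that retains the SREBP complex in the endoplasmic reticulum, was at 182, 158 and 152 TPM in NPEM and between 79.6 and 112 TPM in the other 9 libraries. It passed the test of any difference among the 4 groups (adjusted p = 0.0192) and, with the block, DMEM against NPEM (LogFC -0.83, adjusted p = 0.0296). Srebf2 was at 136 ± 17.9 TPM in NPEM and 96.1 ± 16.6 TPM in CHIR and was called in no pair of groups. Mlxipl, the carbohydrate-responsive factor ChREBP, was at 2.49 TPM or below in all libraries. Of 20 regulators tested in DMEM against NPEM, 11 were below 0, against 39.7% of all genes, and the median LogFC was -0.02.

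The NADPH-making genes gave a mixed picture. Of the 14 tested genes of citrate supply and NADPH, 10 were below 0 in DMEM against NPEM, against 39.7% of all genes. Their median LogFC was -0.06, and none was called with or without the block. Pgd, of the pentose phosphate pathway, was at 186 ± 41.8 TPM in NPEM and 112 ± 8.31 TPM in DMEM (LogFC -0.70, blocked adjusted p = 0.0518). The cytosolic isocitrate dehydrogenase Idh1 was at 155, 120 and 127 TPM in NPEM and at 63.2, 69.1 and 73.5 TPM in CHIR, with no overlap. In CHIR against DMEM Idh1 was called with the block (LogFC -0.52, adjusted p = 0.0378).

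Other elongation genes lay in both directions. Elovl5, which elongates polyunsaturated chains, was at 97.1, 64.5 and 66.3 TPM in NPEM, at 171, 145 and 128 TPM in DMEM, at 86.0, 68.7 and 69.5 TPM in CHIR and at 177, 143 and 129 TPM in YN1. The DMEM and YN1 libraries lay above all NPEM and CHIR libraries. With the block, Elovl5 was called higher in DMEM than in NPEM (LogFC 0.97, adjusted p = 0.0221), higher in YN1 than in NPEM (0.98, 0.0480) and lower in CHIR than in DMEM (-0.97, 0.0179). The dehydratase Hacd4 was low, at 2.22 ± 0.827 TPM in NPEM and 7.47 ± 0.937 TPM in DMEM, and was called higher in DMEM with the block (LogFC 1.42, adjusted p = 0.0303). Hsd17b12, the ketoacyl reductase of the elongation cycle, was at 222, 175 and 157 TPM in NPEM and at 140, 100.5 and 114 TPM in DMEM and was called lower in DMEM with the block (LogFC -0.64, adjusted p = 0.0328). Of the 15 tested genes of this list, 9 were below 0 in DMEM against NPEM, against 39.7% of all genes, with a median LogFC of -0.04. These 3 were called with the block, against 6.5% of all genes.

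Fatty acid oxidation, which runs opposite to synthesis, was counted in the same way. In DMEM against NPEM 3 of 17 tested genes were below 0, against 39.7% of all genes, with a median LogFC of 0.33. Of the 17, 8 were higher at an unadjusted p under 0.05, against 10.8% of all genes, and 2 were called with the block, against 6.5% of all genes, namely Acadvl (LogFC 1.09, adjusted p = 0.0200) and Cpt1c (1.30, 0.0262). In CHIR against DMEM 16 of 17 were below 0, against 65.4% of all genes, with a median of -0.50, against -0.15. Of the 17, 10 were lower at an unadjusted p, against 15.1% of all genes, and 5 were called lower with the block, against 12.8% of all genes in either direction. These were Acadvl (LogFC -0.79), Hadha (-0.50), Hadh (-0.62), Etfa (-0.47) and Etfb (-0.73), with blocked adjusted p from 0.0280 to 0.0436. Of these, Hadha was at 175, 166 and 160 TPM in DMEM and at 135, 110 and 111 TPM in CHIR. No gene of this list was called without the block in any pair of groups. In glycerolipid synthesis, Lpin1 was at 2.31, 1.43 and 2.77 TPM in CHIR and between 5.48 and 10.3 TPM in the other 9 libraries, and it passed the test of any difference among the 4 groups (adjusted p = 0.0182). Of the 12 tested genes of this list, 5 were below 0 in DMEM against NPEM, with a median LogFC of 0.08. In mitochondrial fatty acid synthesis 2 of 6 tested genes were below 0 there, with a median of 0.20. In YN1 against NPEM these 6 were all above 0 and none was called, where 39.4% of all genes were below 0. Cbr4 of that list passed the test of any difference (adjusted p = 0.0104), where 3.17% of all genes did.

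**Figure D4:**
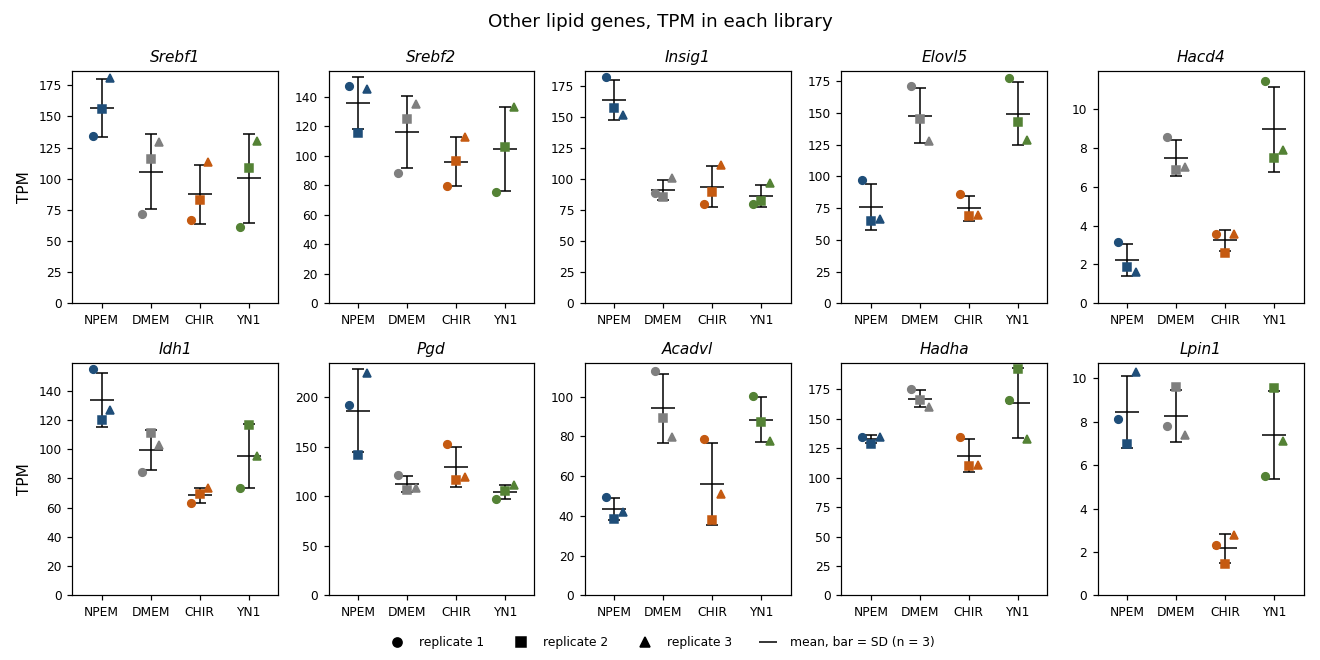
TPM (y axis, from 0) of 10 genes outside the route, namely SREBP genes, Insig1, elongation, NADPH, oxidation and glycerolipid genes, in every library by group (x axis), with mean and SD of 3 libraries. Insig1 is highest in the 3 NPEM libraries, Elovl5 and Hacd4 are higher in DMEM and YN1 than in NPEM and CHIR, and Lpin1 is lowest in CHIR.

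The patterns of the genes over the 12 libraries were compared by the root mean square difference of log2(TPM + 1), each gene centred on its mean, as a description. Among the members the closest were Acly and Acaca with a difference of 0.18, then Acaca and Acsl3 with 0.23. Outside the list and among 11096 genes with a mean of at least 5 TPM, those near to Acly included Acat2 (0.13), Shf (0.14), Aacs (0.18) and Ap2s1 (0.18). Those nearest to Fasn were Rcor2 (0.22), Ier2 (0.24), Pfkl (0.27), Ddit4 (0.28) and Tlnrd1 (0.29). Those nearest to Acaca were Mcm2 (0.15), Parp1 (0.15), Bri3bp (0.16), Utp14b (0.17) and Mex3a (0.17). These values rest on libraries that share preparations and treatments and carry no test.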

How the data were processed

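RNA was poly-A selected and sequenced without strand information. Per the study's methods the authors quantified transcripts with Kallisto and deposited TPM collapsed to genes; the submitters' notes also name STAR, RSEM and FastQC and the builds mm9 and mm10, with versions not given in the sources used here. Only the deposited TPM columns were used, each matched to a sample by name; the deposited comparison tables hold the authors' fold changes and p-values and were not used. All 12 libraries listed between 13754 and 14569 genes at 1 TPM or more.

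Values were analysed as log2(TPM + 1) with limma 3.58.1 (trend, R 4.3.3), keeping genes of at least 1 TPM in 3 libraries of the fit, two-sided, at a threshold of 0.05 on p-values adjusted by the Benjamini-Hochberg method across every gene in the fit. Each pair of groups was fitted on its 6 libraries. The replicate number was added as a block as an alternative. It pairs the libraries: over 14084 genes, deviations from group means correlated at 0.369 to 0.743 in the 18 pairs of the same number and at -0.529 to -0.0652 in the 36 pairs of different numbers. Blocked values are printed where they change a call. Without the block a p-value sets the group difference against the spread between the 3 libraries of a group. With the block it is set against the spread left after the replicate number.

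All 10 genes were named whatever their values; other genes were named from the lists where they passed a test at an adjusted or unadjusted p under 0.05, with Srebf1, Srebf2, Insig1 and Mlxipl whatever their value. The genes and lists were chosen with earlier results of these data known. Of the lists, Elovl3, Scd1, Scd2, Scd3, Fads1, Fads2, Fads3, Hsd17b8, Me2, Cpt1a and Acaa2 were not analysed here. Promoters and gene places are from RefSeq (GRCm38.p6). Alternatives were another pseudocount, other filters, quantile normalisation, no trend, one fit over 4 groups, the block, and leaving out each library. The genes nearest in pattern to Acly, Fasn and Acaca were the 5 with the smallest difference, of which 1 is not reported here.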

Additional observations from a re-analysis of the deposited data

How the results depend on the processing

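No called value reversed its direction under any alternative run. The block (replicate number, which pairs the libraries) took the count of called genes of the 10 from 0 to 1 in YN1 against NPEM, from 0 to 4 in DMEM against NPEM, from 0 to 3 in CHIR against DMEM and from 0 to 1 in YN1 against CHIR, from 1 to 9 in the test of any difference and from 1 to 7 in NPEM against the mean of the others; it changed no call in YN1 against DMEM or CHIR against NPEM. At an unadjusted p the block gave 7 of 10 in CHIR against NPEM, 6 in CHIR against DMEM and 5 in YN1 against CHIR. The share of all genes at that threshold with the block is not given here. One fit over all 4 groups gave 1 in YN1 against NPEM and 1 in CHIR against NPEM. With the block as well, that fit gave 7 in YN1 against NPEM, 3 in CHIR against NPEM, 6 in DMEM against NPEM, 4 in CHIR against DMEM and 3 in YN1 against CHIR, and at an unadjusted p 7 in CHIR against NPEM, 5 in CHIR against DMEM and 6 in YN1 against CHIR. Over all genes this fit called 2285, 1447, 1934, 3381 and 2882 genes in those 5 comparisons, against 33, 53, 64, 36 and 1 in the 6-library fits without the block. Quantile normalisation gave 1 called gene in DMEM against NPEM (Elovl6, adjusted p = 0.0446) and 2 in NPEM against the mean of the others, a minimum mean of 5 TPM also gave 2 there, and no filter gave 0 in the test of any difference. For the 4-group fit at an unadjusted p or without the block, quantile normalisation and the other filters, no share of all genes is given here. These counts are therefore not read as particular to the 10 genes. The same holds for the ranges in the next paragraph.

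Leaving out libraries, including all of one replicate number with the block, an alternative chosen after seeing the data, gave 0 to 1 called genes in CHIR against NPEM, 0 to 4 in the test of any difference and 0 to 6 in NPEM against the mean of the others, and at an unadjusted p 1 to 4 in CHIR against DMEM and 0 to 4 in YN1 against CHIR. Without the replicate 3 libraries the blocked test of any difference called 35 genes of all, against 3947 with every library. Of single values under the alternatives, 1152 stayed on the same side of the threshold, 67 passed the threshold only there, 11 lost it and 3 moved by more than the spread between replicates; 42 values changed sign, none of them called. The causes were not tested. Depth is unknown, so no counting error can be given for low genes such as Acacb.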
